A study of Mus musculus with 6 samples.

Results

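Messenger RNA of 10 receptor genes that control metabolism in hepatocytes was compared in regenerating livers with and without Socs3 in hepatocytes. The 10 genes were Nr1i3, Nr1i2, Nr1h4, Nr0b2, Ppara, Rxra, Nr1h3, Hnf4a, Nr5a2 and Ahr. They were named by symbol, and every probe set that the platform annotation gives to 1 of them alone was taken, which made 22 of the 45101 probe sets on the array. Livers were harvested 18 hours after partial hepatectomy, an operation that takes out most of the organ, from C57BL/6 mice. Both groups were Socs3 fl/fl. The Cre plus group (n = 3 arrays, A, B and C) also carried Alb-Cre, a Cre recombinase transgene whose albumin promoter restricts loss of the floxed gene to hepatocytes. The Cre minus group (n = 3 arrays, A, B and C) were littermates without the transgene. The ages of these mice are not given in the sources used here, and the labels do not tie each array to a separate mouse. The p-values therefore set a group difference against the spread among these samples only, which may in part be technical. Neither group was sampled before surgery and the control group carries no Cre, so a prior difference, a changed response to surgery and any action of Cre on its own cannot be told apart.

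Nuclear receptors are transcription factors whose activity is set by small lipophilic molecules, and in the liver they adjust gene expression to bile acids, oxysterols, fatty acids and foreign compounds. Most of these receptors bind DNA as heterodimers with the retinoid X receptor RXRα, the product of Rxra. The bile acid receptor FXR induces the small heterodimer partner SHP, which lacks a DNA-binding domain and represses other receptors, and this loop restrains bile acid synthesis. The aryl hydrocarbon receptor, encoded by Ahr, is not a nuclear receptor by descent. It is a ligand-activated factor of the bHLH-PAS family that pairs with ARNT, and it is grouped here with the others because it controls drug-metabolizing enzymes.

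Gene positions are those of the RefSeq annotation of GRCm38.p6, and where each probe set lies within its gene was not analysed here. Values are on the log2 scale after GCRMA, a background correction and normalization for these arrays, so a difference of 1 is a change of 2-fold. A probe set was tested where its log2 value was over 4 in at least 3 of the 6 arrays. This kept 20 of the 22 probe sets and all 10 genes. The 2 left out, 1 of Rxra and 1 of Nr5a2, lay at the bottom of the scale in every array, at 2.89 to 2.91 and at 2.55 to 2.57. Arrays correlated over the 8554 genes tested at 0.995 within Cre minus, at 0.987 to 0.990 within Cre plus and at 0.982 to 0.993 between the groups, so the Cre plus arrays were less alike. Socs3 itself, on its brightest probe set, was 9.09, 9.30 and 9.24 in Cre minus and 7.44, 6.69 and 7.47 in Cre plus, array A first. This is 24.9% of the control signal, in RNA from whole liver, which also holds cells other than hepatocytes. Socs3 was lower with groups apart on all 3 of its probe sets, and its adjusted p was 0.0732.

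The xenobiotic receptors CAR and PXR had the largest differences of the 10, and both were lower in Cre plus. Nr1i3 (chr1:171213934-171218845) encodes CAR, the constitutive androstane receptor, which induces enzymes that clear drugs, bilirubin and steroids. Its log2 values, in the order A, B and C throughout, were 9.69, 9.36 and 9.52 in Cre minus and 8.84, 8.88 and 8.57 in Cre plus. Every Cre plus array lay below every Cre minus array, and the gap between the groups was wider than the range within either. The means were 9.52 ± 0.17 and 8.76 ± 0.17 (SD, n = 3), a log2 fold change of -0.76 ± 0.12 (SE, 95% interval -1.06 to -0.46). The signal in Cre plus was thus 59.0% of the control signal, with an interval of 47.9% to 72.7%. The unadjusted p from limma was 8.61e-04, the smallest of the 10 and the 74th of 8554 genes, and the adjusted p of 0.0995 did not pass the threshold of 0.05. Where the filter was raised to a log2 value of 6, the adjusted p was 0.04996 and Nr1i3 passed. Over the 16 alternative settings its adjusted p ran from 0.04996 to 0.336 and its log2 fold change from -0.84 to -0.66.

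Nr1i2 (chr16:38248349-38294849) encodes PXR, the pregnane X receptor, which senses drugs and steroids and induces Cyp3a enzymes and transporters. Its brighter probe set gave log2 values of 7.34, 7.02 and 7.25 in Cre minus and 6.79, 6.69 and 6.92 in Cre plus. The groups did not overlap, and the lowest Cre minus array stood just above the highest Cre plus array. The log2 fold change was -0.40 ± 0.11 (SE, 95% interval -0.67 to -0.14), with an unadjusted p of 0.0101 and an adjusted p of 0.206, which did not pass. The dimmer probe set of Nr1i2 was 6.51, 6.60 and 6.46 in Cre minus and 6.20, 6.46 and 6.24 in Cre plus. There the highest Cre plus array and the lowest Cre minus array were equal to 2 decimals, and the log2 fold change was -0.22 ± 0.09. Both probe sets were therefore lower in Cre plus, and neither passed over all probe sets (adjusted p 0.249 and 0.372).

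**Figure D1:**
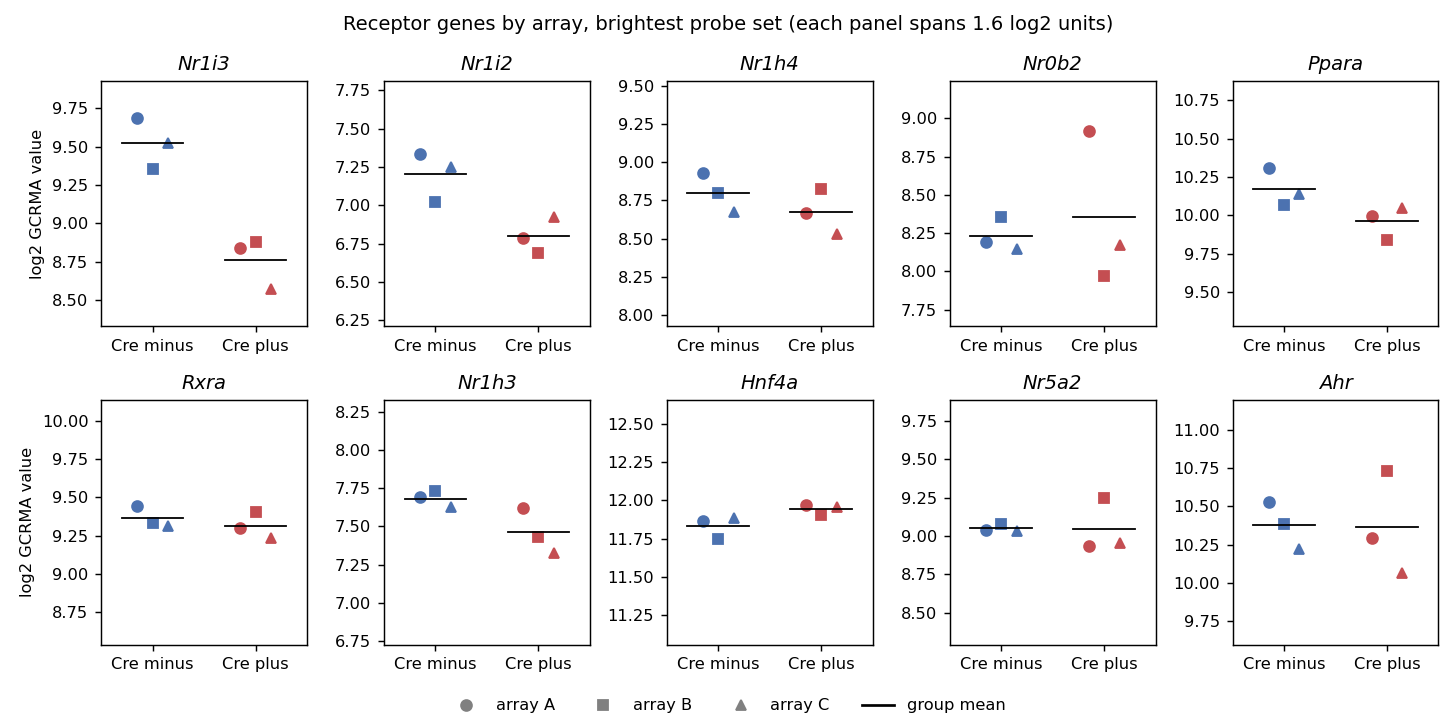
Log2 GCRMA value of the brightest probe set of each of the 10 receptor genes in the 6 arrays, with Cre minus in blue, Cre plus in red, a circle, square or triangle for array A, B or C and the group mean as a line. Every panel spans the same 1.6 log2 units around its own middle. Nr1i3 shows the widest gap between groups, from 9.52 to 8.76 on average, while Nr0b2 has 1 high Cre plus array at 8.91.

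The sequence upstream of the genes that differed most, Nr1i3 and Nr1i2, is given with that of Nr0b2, whose window was the 1 of the receptors' windows to hold a match to a STAT site. Socs3 restrains STAT3, which binds such sites. Sequences are from RefSeq promoter windows of GRCm38.p6, which run from 250 bases before to 50 bases after a start, trimmed here to the bases before the first annotated base of the gene. Each is written 5′ to 3′ on the strand of the gene, with matches to any of the motifs searched in capitals.
Nr1i3, chr1:171213720-171213933, plus strand: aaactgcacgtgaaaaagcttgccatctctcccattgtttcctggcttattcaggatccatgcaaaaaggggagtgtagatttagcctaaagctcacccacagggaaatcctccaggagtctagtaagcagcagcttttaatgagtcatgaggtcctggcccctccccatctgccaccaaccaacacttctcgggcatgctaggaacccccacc
Nr1i2, chr16:38294850-38295074, minus strand: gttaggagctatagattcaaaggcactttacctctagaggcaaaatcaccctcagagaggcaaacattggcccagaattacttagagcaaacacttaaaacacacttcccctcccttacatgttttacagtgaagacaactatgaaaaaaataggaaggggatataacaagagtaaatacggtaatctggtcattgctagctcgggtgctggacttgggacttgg
Nr0b2, chr4:133553126-133553375, plus strand: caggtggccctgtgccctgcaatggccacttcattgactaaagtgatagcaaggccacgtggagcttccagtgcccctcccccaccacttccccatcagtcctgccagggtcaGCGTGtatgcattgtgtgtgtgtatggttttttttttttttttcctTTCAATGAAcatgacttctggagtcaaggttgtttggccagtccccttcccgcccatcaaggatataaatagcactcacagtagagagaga
The motifs were TTCNNNGAA for STAT factors, which reads the same on both strands, AGGTCA, a core sequence bound by many nuclear receptors, and GCGTG, the core bound by AHR with ARNT, searched on both strands of the whole 300-base windows. A window was found for 9 of the 10 genes, 13 windows in all, and not for Ahr. TTCNNNGAA matched 1 of the 13 windows, that of Nr0b2, where it begins 91 bases before the start, against 8.30% of all 32851 windows. AGGTCA matched 3 of the 13 windows (of Nr1h4, Nr5a2 and Rxra) against 16.3% of all windows. GCGTG matched 3 of the 13 (of Nr0b2, Nr5a2 and Ppara) against 32.4%. The windows of Nr1i3, Nr1i2, Nr1h3 and Hnf4a held none of these letters. No match overlapped a match to another motif, and a match describes letters only.

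The lipid receptors PPARα and LXRα were lower in Cre plus by smaller amounts, in every array but with groups close together. Ppara (chr15:85734910-85806851) encodes the fatty acid sensor that induces fatty acid oxidation and ketogenesis in fasting. Its brightest probe set was 10.31, 10.07 and 10.14 in Cre minus and 9.996, 9.842 and 10.04 in Cre plus. The second was 9.96, 9.74 and 9.77 against 9.66, 9.47 and 9.33, and the third 8.74, 8.36 and 8.47 against 8.27, 8.13 and 8.04. On each of the 3 probe sets all Cre plus arrays lay below all Cre minus arrays. The log2 fold changes were -0.21 ± 0.09, -0.34 ± 0.11 and -0.38 ± 0.12 (SE), with unadjusted p of 0.0605, 0.0213 and 0.0204 and adjusted p of 0.392, 0.303 and 0.298 over all probe sets. None passed after adjustment, and the dimmer probe sets gave the larger differences. Read as the mean of its probe sets, Ppara had a log2 fold change of -0.31 with an unadjusted p of 0.0175 and an adjusted p of 0.246.

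Nr1h3 (chr2:91184061-91202829) encodes LXRα, the oxysterol sensor that promotes cholesterol disposal and, through Srebf1, fatty acid synthesis. Its 1 probe set was 7.69, 7.73 and 7.62 in Cre minus and 7.62, 7.43 and 7.33 in Cre plus. Cre plus A was equal to Cre minus C to 2 decimals, and Cre plus B and C lay clearly below. The log2 fold change was -0.22 ± 0.09 (95% interval -0.44 to -0.0016), with an unadjusted p of 0.0488 and an adjusted p of 0.333. Its unadjusted p was under 0.05 in 6 of the 16 alternatives, so its place on either side of that line depended on the setting.

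Read by gene, 3 of the 10 receptors (Nr1i3, Nr1i2 and Nr1h3) were lower at an unadjusted p under 0.05, against a background of 8.21% of all genes tested, and 0 were higher, against 6.62%. No receptor passed an adjusted p under 0.05, which 0.0234% of genes did. The groups did not overlap with Cre plus lower in 4 receptors (Nr1i3, Nr1i2, Nr1h3 and Ppara), against 11.9% of genes, and with Cre plus higher in 1 (Hnf4a), against 9.21%. In value 8 receptors were lower (80%, against 53.5% of all genes tested) and 2 higher. Of these, Nr5a2 and Ahr, both counted as lower, changed sign in 5 of the 16 alternative settings each. The median log2 fold change of the receptors was -0.09 against -0.01 over all genes tested. Read by probe set, 6 of the 20 were lower at an unadjusted p under 0.05, against 7.18% of all 15563 probe sets, and 0 were higher, against 6.12%. With Cre plus lower the groups stood apart in 7 probe sets, against 11.0% of all, and these were the 7 of Nr1i3, Nr1i2, Ppara and Nr1h3. With Cre plus higher they stood apart in 2, both of Hnf4a, against 8.78%. No probe set of a receptor passed an adjusted p under 0.05, against 0.0129% of all. Probe sets of 1 gene share their RNA and are not independent.

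**Figure D2:**
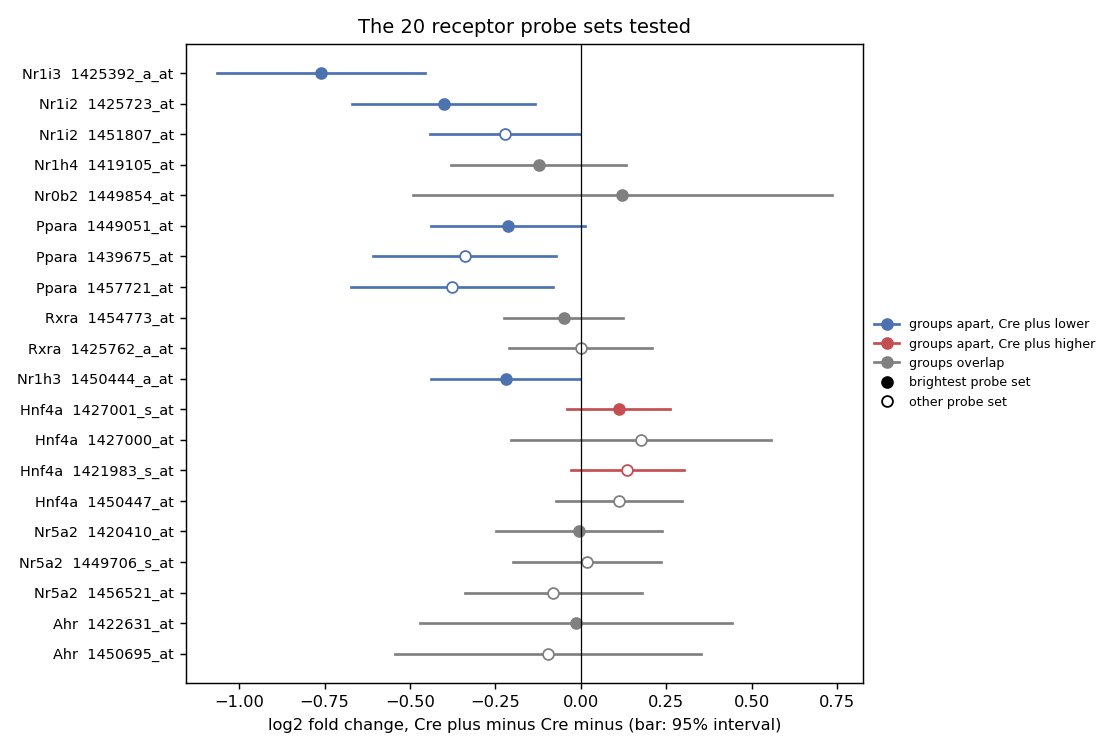
Log2 fold change of Cre plus over Cre minus with its 95% interval from limma for the 20 receptor probe sets tested, filled for the brightest probe set of a gene and coloured where all arrays of the groups stand apart. The 7 blue probe sets of Nr1i3, Nr1i2, Ppara and Nr1h3 lie to the left of 0, from -0.76 to -0.21, and those of Hnf4a lie to the right, from 0.11 to 0.17.

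The receptors of the bile acid loop did not differ beyond the spread of the arrays. Nr1h4 (chr10:89454234-89533645) encodes FXR, the bile acid receptor, and was 8.93, 8.80 and 8.67 in Cre minus and 8.67, 8.82 and 8.53 in Cre plus. The groups overlapped, and the log2 fold change was -0.12 ± 0.10 (95% interval -0.38 to 0.13, adjusted p 0.615). Leaving out array B or C of Cre plus gave -0.20 or -0.05. Nr0b2 (chr4:133553376-133556686) encodes SHP and was 8.20, 8.36 and 8.14 in Cre minus and 8.91, 7.97 and 8.17 in Cre plus. Cre plus A was the highest of the 6 arrays and Cre plus B the lowest, so the SD was 0.50 in Cre plus against 0.11 in Cre minus. The log2 fold change of 0.12 ± 0.25 (95% interval -0.48 to 0.73, adjusted p 0.859) became -0.16 when Cre plus A was left out and 0.31 when Cre plus B was. The neutrophil marker S100a8 was also highest in Cre plus A, at 10.10 against 8.19 to 8.54 in the other arrays, and the part of this in the Nr0b2 value was not tested. S100a8 was chosen after its values were seen.

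Nr5a2 (chr1:136842562-136960448) encodes LRH-1, which binds DNA as a monomer and drives bile acid and reverse cholesterol transport genes that SHP represses. Its brightest probe set was 9.04, 9.08 and 9.03 in Cre minus and 8.93, 9.25 and 8.95 in Cre plus, so Cre plus B was highest and the other Cre plus arrays lowest. The log2 fold change was -0.01 ± 0.10 (95% interval -0.25 to 0.24, adjusted p 0.990), and its sign turned with the scaling of the arrays. Its 3 probe sets tested ran from -0.08 to 0.02 and were of both signs, the only such case among the 6 receptors with more than 1 probe set tested.

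Rxra (chr2:27676445-27763319), the shared heterodimer partner, differed little. Its brightest probe set was 9.44, 9.33 and 9.31 in Cre minus and 9.30, 9.41 and 9.24 in Cre plus. The log2 fold change was -0.05 ± 0.07 (95% interval -0.23 to 0.13, adjusted p 0.777), and its second probe set averaged 7.09 in both groups. The groups overlapped on both probe sets.

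Hnf4a (chr2:163506811-163572907) was the receptor whose brightest probe set was higher in every Cre plus array. It encodes HNF4α, which binds DNA as a homodimer and maintains the hepatocyte programme. The brightest probe set was 11.87, 11.75 and 11.89 in Cre minus and 11.97, 11.91 and 11.96 in Cre plus. The groups stood apart by a narrow margin, and the means were 11.83 ± 0.08 and 11.94 ± 0.03 (SD, n = 3). The log2 fold change was 0.11 ± 0.06 (95% interval -0.04 to 0.26), with an unadjusted p of 0.125 and an adjusted p of 0.458, and did not pass. All 4 probe sets of Hnf4a were higher in mean, and on 2 of them the groups overlapped. The log2 fold changes were 0.11 to 0.17, with unadjusted p of 0.0910 to 0.302 over all probe sets. The brightest is of the _s_at kind, which can bind more than 1 transcript, and without _x_at and _s_at probe sets the log2 fold change of Hnf4a was 0.17. Without Cre minus B it was 0.07.

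Ahr (chr12:35497979-35534989) varied more among Cre plus arrays than between groups. Its brighter probe set was 10.53, 10.38 and 10.22 in Cre minus and 10.30, 10.73 and 10.06 in Cre plus. Cre plus B was the highest and Cre plus C the lowest of all 6 arrays, and the dimmer probe set showed the same order of extremes, with 6.88 in array B and 6.22 in array C. The log2 fold change was -0.01 ± 0.18 (95% interval -0.46 to 0.44, adjusted p 0.983), with a sign that turned under quantile normalization.

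The Cre plus arrays did not shift alike. On the brightest probe sets, relative to the Cre minus mean, array A of Cre plus was lower for 8 receptors, array B for 5 and array C for 9. Nr1i3 was lower by a large amount in each, at -0.68 in A, -0.65 in B and -0.96 in C, and Nr1i2 followed at -0.41, -0.52 and -0.28. In Cre plus B, Nr1h4 (0.02), Rxra (0.04), Nr5a2 (0.20) and Ahr (0.35) lay above the Cre minus mean, while the same 4 genes lay below it in Cre plus A and C. Dimmer probe sets did not all follow. The second of Rxra was at 0.06 in A, -0.04 in B and -0.02 in C. The second of Nr5a2 was above the mean in C (0.08) and that of Ahr in A (0.04). The third of Nr5a2 did follow, at -0.07, 0.06 and -0.23. On its brightest probe set Ppara was lowest in Cre plus B, at -0.33 against -0.18 in A and -0.13 in C. Its dimmer probe sets were instead lowest in Cre plus C. The brighter of these was at -0.17, -0.36 and -0.50 in A, B and C, and the dimmer at -0.25, -0.39 and -0.49. The SD was larger in Cre plus than in Cre minus for 7 of the 10 receptors. The share of all genes for this count, and for the counts by array, was not computed. Over all genes tested the Cre plus arrays were also less alike, with correlations of 0.987 to 0.990 against 0.995 within Cre minus. The median log2 fold change of the 10 receptors was -0.18 without Cre plus B, -0.03 without Cre plus C, -0.14 without Cre plus A or Cre minus C and -0.03 without Cre minus A.

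**Figure D3:**
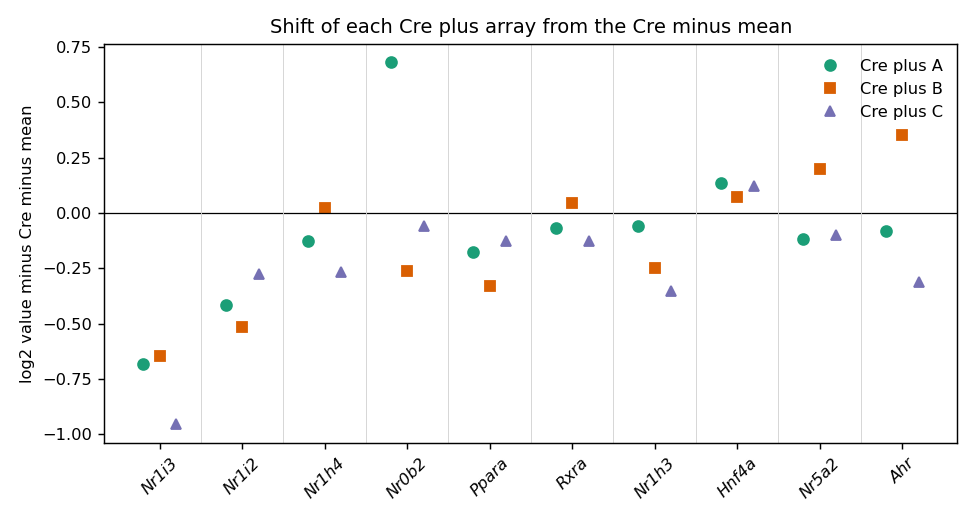
Log2 value of each Cre plus array minus the mean of the 3 Cre minus arrays for the brightest probe set of each receptor gene. All Cre plus arrays lie below 0 for Nr1i3, Nr1i2, Ppara and Nr1h3 and above 0 for Hnf4a, and Cre plus B lies apart from A and C for Nr5a2 and Ahr.

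Other members of the nuclear receptor superfamily had mixed differences. Of 39 listed genes 13 were tested. In value 9 were lower (69.2%, against 53.5% of all genes tested) and 4 higher, with a median log2 fold change of -0.07. That median was -0.03 without Cre minus A or Cre minus C and -0.11 without Cre minus B. It was the value of Rarg, which with Nr3c2, Thra and Vdr lay close to the filter of 4, at 4.00 to 4.35. Of these genes only Vdr was not lower in value. With the filter at 6 the median was -0.13. Rarg, Nr3c2, Thra and Vdr were chosen after their values were seen. At an unadjusted p under 0.05 there were 2 lower (15.4%, against 8.21% of all genes) and 1 higher (7.69%, against 6.62%), and 0 passed after adjustment. The oestrogen receptor gene Esr1 was higher at 0.29 ± 0.10 (adjusted p 0.276). Nr2f6, an orphan receptor, was lower at -0.31 ± 0.12, Rora, a regulator of the clock and of lipid metabolism, at -0.13 ± 0.05, and the glucocorticoid receptor gene Nr3c1 at -0.22 ± 0.12 (adjusted p 0.304 to 0.465).

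Partner proteins and coregulators, the cofactors through which these receptors change transcription, were mostly higher. Of 25 listed genes 18 were tested. In value 14 were higher and 4 lower (22.2% lower, against 53.5% of all genes tested), with a median log2 fold change of 0.20. The unadjusted p was under 0.05 in 6 higher genes (33.3%, against 6.62% of all genes) and in 0 lower ones (against 8.21%). The groups stood apart in 7 higher genes, against 9.21%, and 0 passed after adjustment. The examples with the smallest p were the histone demethylase Kdm1a at 0.19 ± 0.05, the corepressor Nrip1 at 0.23 ± 0.07, the chaperone Hsp90aa1, which holds AHR and CAR in the cytoplasm, at 0.29 ± 0.09, and the coactivator Ncoa2 at 0.21 ± 0.07 (adjusted p 0.235 to 0.265). Kdm1a was 7.69, 7.77 and 7.67 in Cre minus and 7.88, 7.92 and 7.89 in Cre plus, and the groups did not overlap. Arnt, the partner of AHR, was at 0.08 ± 0.07 (adjusted p 0.621) and was chosen after its values were seen.

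Genes known to respond to each receptor were read from lists of textbook targets, which hold induced and repressed genes alike. Beside a median of -0.01 over all genes tested, the medians were -0.16 for 16 CAR and PXR targets, -0.27 for 30 PPARα targets, -0.10 for 17 LXR targets and -0.11 for 16 FXR and SHP targets. They were -0.16 for 24 HNF4α targets, -0.21 for 12 LRH-1 targets and -0.11 for 7 AHR targets. Abcg5, Abcg8, Cyp8b1 and Scarb1 stand in 2 of the lists each, as do Cyp7a1 and Lipc, which were not tested. Ttr, Apob and Tat stand among the HNF4α targets and also among the hepatocyte markers below. No target passed an adjusted p under 0.05. Beside the counts of lower targets below, 53.5% of all genes tested were lower in value.

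Among CAR and PXR targets 13 of 16 were lower in value, and the unadjusted p was under 0.05 for 5 lower genes (31.2%, against 8.21% of all genes) and 1 higher one (6.25%, against 6.62%). Without Cre plus A the median of this list was -0.07, and with no filter on dim probe sets it was -0.06. Cyp3a25, a steroid and drug hydroxylase, was 13.00, 12.85 and 12.95 in Cre minus and 11.68, 11.48 and 12.01 in Cre plus. Every Cre plus array was lower by more than the range within either group, and the log2 fold change was -1.21 ± 0.14 (adjusted p 0.0732). The uptake transporter Slco1a4 was at -0.80 ± 0.23, the hydroxylase Cyp2c37 at -0.42 ± 0.13 and the canalicular exporter Abcc2 at -0.44 ± 0.15 (adjusted p 0.224 to 0.278). Cyp3a11, the textbook target of PXR, was 13.62, 13.56 and 13.75 against 13.44, 13.50 and 13.67, with overlapping groups and a log2 fold change of -0.11 ± 0.09 (adjusted p 0.596). Cyp2b10, the textbook target of CAR, was not above the filter in any array, at 2.67 to 2.69, so nothing can be said of its change. Cyp3a11 and Cyp2b10 were chosen for their standing as targets after their values were seen.

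Of 30 PPARα targets, the longest list tested, 25 were lower and 5 higher in value (83.3% lower, against 53.5% of all genes tested). The share lower was as high among HNF4α targets (83.3%) and higher among LRH-1 targets (91.7%). In all 13 lower genes (43.3%) had an unadjusted p under 0.05, against 8.21% of all genes, while 0 higher genes did. The medium-chain acyl-CoA dehydrogenase Acadm was 11.85, 11.65 and 11.82 in Cre minus and 11.31, 11.28 and 11.35 in Cre plus. Its groups stood apart, at a log2 fold change of -0.46 ± 0.07 (adjusted p 0.0995). The pantetheinase Vnn1 was at -0.90 ± 0.19 and the peroxisomal and mitochondrial isomerases Ech1 and Eci1 at -0.35 ± 0.08 and -0.47 ± 0.12 (adjusted p 0.162 to 0.196). The shift of the list's median was -0.17 in the first Cre plus array, -0.32 in the second and -0.25 in the last.

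Among FXR and SHP targets 13 of 16 were lower in value, and the unadjusted p was under 0.05 for 5 lower genes (31.2%, against 8.21% of all genes) and 0 higher ones (against 6.62%). The median of the list was -0.19 without Cre plus C and -0.17 without _x_at and _s_at probe sets. The genes named by the smallest p included ones that FXR induces, the phospholipid exporter Abcb4 at -0.71 ± 0.12 and the sterol regulator Insig2 at -0.50 ± 0.15. They also included genes that SHP represses, the bile acid hydroxylase Cyp8b1 at -1.72 ± 0.40 and the bile acid uptake transporter Slc10a1 at -0.82 ± 0.22 (adjusted p 0.106 to 0.235 over these 4 genes). Cyp8b1 was 9.69, 8.96 and 9.23 in Cre minus and 6.73, 8.20 and 7.78 in Cre plus. All Cre plus arrays were below all Cre minus arrays, and Cre plus A was the lowest. Cyp7a1, the rate-limiting enzyme of bile acid synthesis, lay at 2.79 to 3.04 in every array and was not tested. The bile acid exporter gene Slc51b, an FXR target, was below the filter at 3.36 to 3.87 in the other arrays and at 7.18 in Cre plus C. Cyp7a1 and Slc51b were chosen after their values were seen.

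Among LXR targets 12 of 17 were lower in value, and the unadjusted p was under 0.05 for 3 lower genes (17.6%, against 8.21% of all genes) and 1 higher one (5.88%, against 6.62%). Without Cre plus B the list's median was -0.03, and without Cre minus A it was -0.06. The sterol exporter genes differed in direction, with Abcg5 at -1.004 ± 0.14 and Abca1 at 0.72 ± 0.11 (adjusted p 0.0866 and 0.0985). Abca1 was 11.40, 11.53 and 11.35 in Cre minus and 12.27, 11.94 and 12.24 in Cre plus, higher in every Cre plus array. The elongase Elovl6 was at -0.42 ± 0.13 and the ubiquitin ligase Rnf145 at -0.32 ± 0.12 (adjusted p 0.259 and 0.293).

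Among HNF4α targets 20 of 24 were lower in value, and the unadjusted p was under 0.05 for 6 lower genes (25.0%, against 8.21% of all genes) and 0 higher ones (against 6.62%). The glucose transporter Slc2a2 was 10.97, 10.67 and 10.89 in Cre minus and 9.22, 9.13 and 9.84 in Cre plus, a log2 fold change of -1.45 ± 0.20 (adjusted p 0.0866). Without Cre plus A the median of the list was -0.07. The tyrosine-degrading enzyme Hgd was at -0.64 ± 0.15, glucose-6-phosphatase (G6pc) at -0.51 ± 0.15 and the gap junction gene Gjb1 at -0.29 ± 0.11 (adjusted p 0.187 to 0.306).

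Among LRH-1 targets 11 of 12 were lower in value, and the unadjusted p was under 0.05 for 3 lower genes (25.0%, against 8.21% of all genes) and 1 higher one (8.33%, against 6.62%). The list's median was -0.13 without Cre plus B. Their higher gene was Plk3, a stress-responsive kinase, at 1.17 ± 0.14 (adjusted p 0.0732), and the lower ones were Abcg5 and Cyp8b1, given above, and the elongase Elovl5 at -0.69 ± 0.14 (adjusted p 0.146). Among 7 AHR targets 4 were lower and 3 higher in value, and their median was -0.04 without Cre minus B or Cre minus C, -0.05 without Cre plus C and -0.0094 with no filter. Tiparp, an ADP-ribosyltransferase that feeds back on AHR, was 4.81, 4.92 and 5.63 in Cre minus and 7.11, 6.02 and 8.71 in Cre plus. It was higher in every Cre plus array and uneven among them, at a log2 fold change of 2.16 ± 0.68 (adjusted p 0.254). Cyp1a2 was at 0.26 ± 0.11, Nfe2l2 at -0.34 ± 0.15 and Ugdh at -0.30 ± 0.15 (adjusted p 0.348 to 0.419), and Cyp1a1, the most inducible AHR target, lay at 1.96 to 1.97 in every array and was chosen after its values were seen. Tiparp was the 1 higher AHR target with an unadjusted p under 0.05 (14.3%, against 6.62% of all genes), and 0 lower ones had it (against 8.21%).

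**Figure D4:**
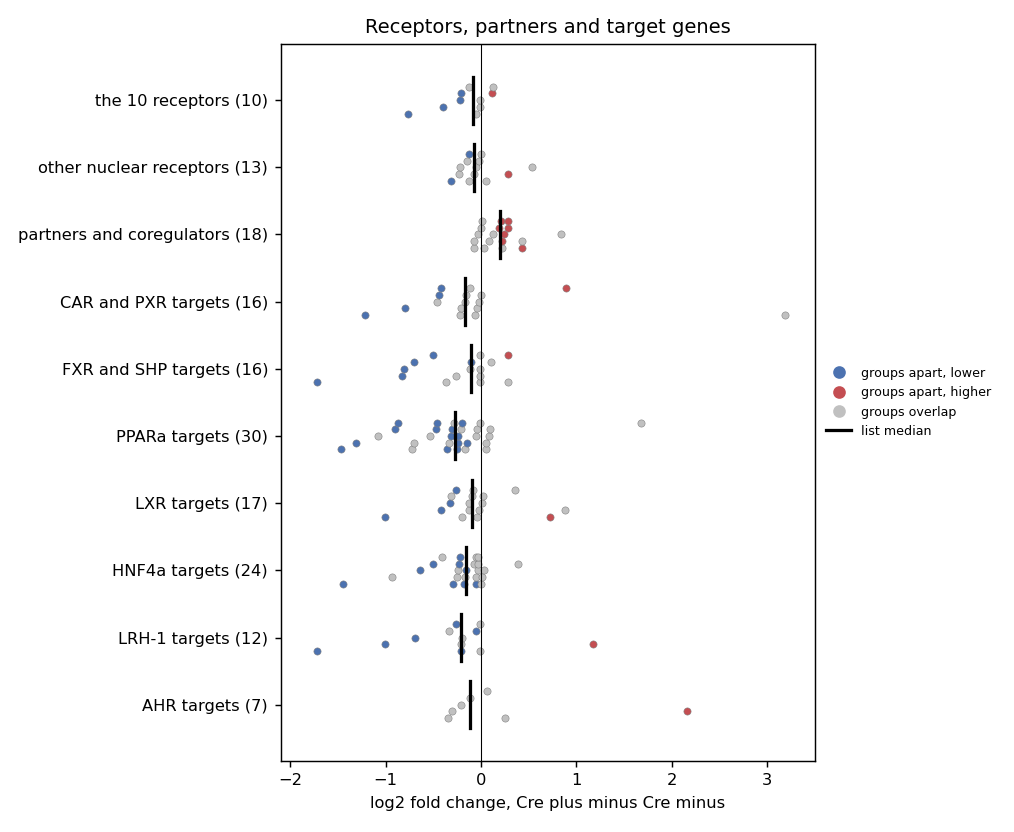
Log2 fold change of Cre plus over Cre minus for each gene tested (points, blue or red where the groups stand apart) and the list median (black bar) for the 10 receptors, other nuclear receptors, partners and coregulators and the target lists, with the number of genes tested in brackets. Medians of the target lists lie between -0.27 and -0.10, and that of partners and coregulators lies at 0.20.

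The livers had the markers of hepatocytes, and macrophage and endothelial markers had lower values in Cre plus beside the lower receptors. In bulk RNA, fewer cells of a type and less RNA per cell cannot be told apart. Of 8 hepatocyte markers tested 5 were lower and 3 higher in value, with a median of -0.05 and summed linear signals of 215469 to 222277 in Cre minus and 204621 to 219904 in Cre plus. The unadjusted p was under 0.05 for 2 lower hepatocyte markers (25.0%, against 8.21% of all genes) and 0 higher ones (against 6.62%). The 2 were the tyrosine-degrading enzyme Hpd at -0.43 ± 0.13 and the urea cycle enzyme Cps1 at -0.50 ± 0.18 (adjusted p 0.241 and 0.293). Albumin (Alb) was at -0.04 ± 0.06. Hpd, Cps1 and Alb were chosen after their values were seen. Of 14 Kupffer cell and macrophage markers 13 were lower and 1 higher, with a median of -0.35, the unadjusted p was under 0.05 for 8 lower markers (57.1%, against 8.21% of all genes) and 1 higher one (7.14%, against 6.62%), and their summed signal was 5182 to 5565 in Cre minus and 3976 to 4754 in Cre plus. Of 10 endothelial markers 9 were lower and 1 higher, with a median of -0.26 and summed signals of 2936 to 3358 and 2340 to 2890. The unadjusted p was under 0.05 for 4 lower endothelial markers (40%, against 8.21% of all genes) and 0 higher ones (against 6.62%). Of all genes tested 53.5% were lower in value. For 9 markers of stellate cells and fibroblasts the median was 0.06. Of 8 cholangiocyte markers 1 was tested, Sox9, and Krt19, Krt7 and Epcam lay at 3.78 or lower. Of 9 neutrophil markers 2 were tested, with a summed signal of 573 to 603 in Cre minus and 492 to 1691 in Cre plus, and Mmp8 and Cxcr2 lay at 3.33 or lower. Of 11 lymphocyte markers 0 were tested, with Cd3e and Ms4a1 at 3.82 or lower. The part of these cell types in the receptor values was not tested.

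**Figure D5:**
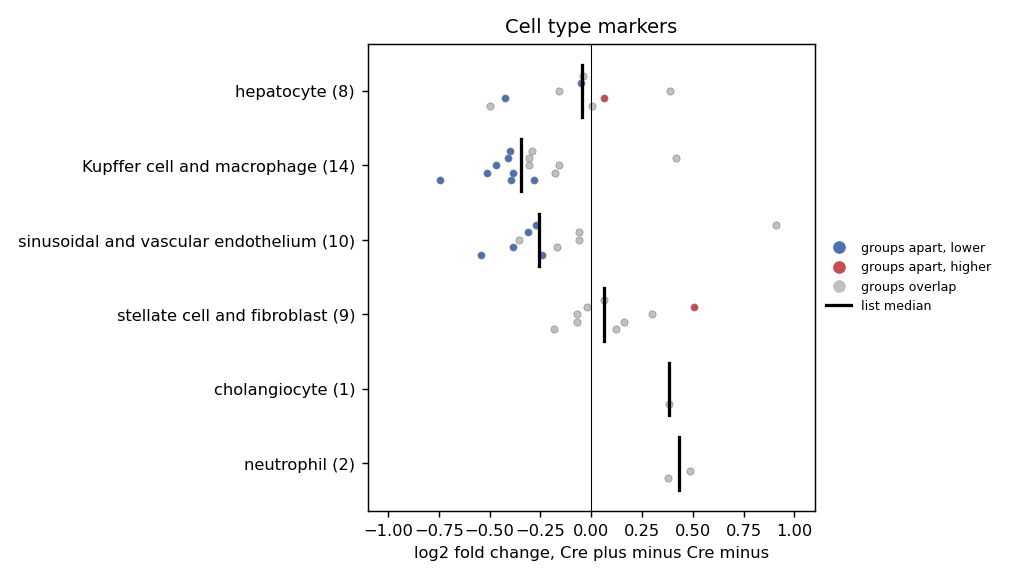
Log2 fold change of Cre plus over Cre minus for each cell type marker tested (points, blue or red where the groups stand apart) and the list median (black bar), with the number of genes tested in brackets. Medians are -0.05 for hepatocyte, -0.35 for Kupffer cell and macrophage and -0.26 for endothelial markers.

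The genes whose profile over the 6 arrays was most like that of Nr1i3 were found by the root mean square difference of log2 values, each gene centred on its own mean. The nearest of the 8554 genes were the nucleoside transporter Slc29a1 (0.07), lysozyme Lyz2 (0.08), the membrane scaffold Mpp1 (0.08), the aldehyde oxidase Aox1 (0.08) and the complement regulator Cd59a (0.09). Nr1i3 itself deviated from its mean by 0.40 on this measure. Lyz2 is 1 of the macrophage markers above. For Hnf4a, the higher receptor with the smallest p, the nearest were Trim44, Metap1, Apoa5, Gstm6 and Rpl6, at 0.01 to 0.02 against a deviation of 0.07 for Hnf4a itself.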

How the data were processed

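For each array 2 ug of whole-liver RNA was labelled and hybridized to an Affymetrix Mouse Genome array, per the labels' protocols. The deposited values are log2 intensities made with GCRMA, per the submitters' processing notes and the range of the values (0.877 to 15.7). The GCRMA version is not given in the sources here. GCRMA compresses differences near background. Array data have no read depth, and 3 arrays a group limit the precision.

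Of 45101 probe sets, 64 were controls and were left out, 34958 had 1 gene symbol, 932 several and 9211 none here. Symbols were checked through the Entrez ID against a RefSeq table of GRCm38.p6. A probe set was kept where 3 or more of 6 arrays exceeded a log2 value of 4 (15563 were), and a gene was read from its brightest kept probe set (8554 genes).

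The groups were compared in limma 3.58.1 (R 4.3.3) by lmFit and eBayes with no block, two-sided, with Benjamini-Hochberg adjustment over all genes or all probe sets. Every p given is limma's. Fits were tested on simulated data. The members and lists were chosen with earlier results of these data known. Named genes were the 10 receptors, Socs3, up to 4 genes per list by smallest p, and the 5 nearest profiles. Listed genes without a single-gene probe set were not analysed here.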

Additional observations from a re-analysis of the deposited data

How the results depend on the processing

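The 16 alternatives were other array scaling, no filter or a stricter one (log2 over 6), a trended robust prior, other ways of joining probe sets, array weights, a replicate block and each array left out in turn. Nr1i3 and Nr1i2 kept their direction and an unadjusted p under 0.05 in all 16, and Nr1h4, Ppara, Rxra, Nr1h3 and Hnf4a kept their direction. The count of receptors past an adjusted p under 0.05 was 0, except 1 (Nr1i3, adjusted p 0.04996) with the stricter filter, where 6236 genes were tested. Over all genes 2 passed, against 56 with the stricter filter, 3 with the mean of all kept probe sets, 0 with no filter, 0 without any one of the Cre minus arrays, 1 with array A of Cre plus left out and 13 with its array B left out. The count lower at an unadjusted p under 0.05 was 2 to 4.

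Nr5a2 changed sign to 0.0034 with arrays shifted to a common median and to 0.0042 with quantile normalization. Ahr changed sign to 8.22e-04 with quantile normalization and to 0.021 with array weights. With each array left out in turn, log2 fold changes ran from -0.11 to 0.051 for Nr5a2, from -0.20 to 0.14 for Ahr and from -0.16 to 0.31 for Nr0b2. In the same fits the medians ran from -0.18 to -0.031 for the 10 receptors, from -0.19 to -0.088 for FXR and SHP targets, from -0.35 to -0.20 for PPARα targets and from -0.21 to -0.074 for HNF4α targets. The median of FXR and SHP targets was -0.17 without _x_at and _s_at probe sets, and that of AHR targets was -0.0094 with no filter. The same alternatives were added, after the data were seen, for other nuclear receptors, partners and coregulators, and macrophage and endothelial markers, and each median kept its sign under all 16. The median of other nuclear receptors was -0.023 with no filter and -0.13 with the stricter one, while that of partners and coregulators was 0.12 with no filter. The cause of these moves was not tested. Same-letter deviations from the group means correlated at -0.15, -0.10 and 0.02 for A, B and C, so no likeness by letter was seen. So few arrays a group cannot show whether the letters mark pairs. With the letter as a replicate block 2 receptors were lower at an unadjusted p under 0.05. In that fit 0 of 8554 genes passed after adjustment in place of 2. Apart from that fit, the deviations from the group means were compared between groups. For 0 of 6 arrays did they correlate best with those of the array of its own letter.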

Other observations

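Among the CAR and PXR targets, 2 genes were higher in part or all of the Cre plus arrays while most of the list was lower. Both were chosen after their values were seen. Alas1, the first enzyme of haem synthesis, was 10.61, 10.63 and 10.80 in Cre minus and 11.58, 10.88 and 12.26 in Cre plus, array A first. The groups did not overlap and the Cre plus arrays were uneven, at a log2 fold change of 0.89 ± 0.34 (SE, limma adjusted p 0.309). Sult1e1, the oestrogen sulfotransferase, was 2.854, 5.998 and 4.388 in Cre minus and 8.997, 4.437 and 9.373 in Cre plus. Arrays A and C of Cre plus lay above all others and array B lay within the Cre minus range, at a log2 fold change of 3.19 ± 1.51 (adjusted p 0.394).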
